A study of Mus musculus with 6 samples.

Results

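The 7 genes described here are grouped as transcription factors of self-renewal, the division of mouse spermatogonial stem cells without differentiation. This self-renewal depends on glial cell line-derived neurotrophic factor (GDNF). The genes are Bcl6b, Etv5, Lhx1, T, Pou3f1, Id4 and Eomes. They were taken from a single-colour Agilent expression array as all probes whose RefSeq transcript accession carries one of these symbols, which gave 8 of 55681 probes, 2 of them for Eomes. They are 7 of 20284 named genes on the array, and 7 of the 14867 named genes that were bright enough to be tested. All 8 probes were well above background on all 6 arrays and none was saturated.

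The cells were mouse spermatogonial stem cells in culture, grown from dissociated testis cells and then kept on mouse embryonic fibroblasts as feeder cells. One group of 3 samples received 0.01 M captopril, an inhibitor of angiotensin-converting enzyme, 4 to 5 days after passage and for 24 h. The other group of 3 received sterile water for the same time, and the labels give 0.01 M for the water too, so what that figure means for the water is not settled. Both groups carry the replicate numbers 2, 3 and 4 and are described as independent experiments. The strain, the age of the donors and the growth factors in the medium are not given in the sources used here, so whether GDNF was added is unknown, and the feeder cells contribute RNA to every sample. In such bulk RNA, fewer cells of a type and less RNA per cell cannot be told apart.

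GDNF binds its co-receptor GFRA1 and the receptor tyrosine kinase RET on the stem cell, and the signal runs through SRC family kinases, phosphoinositide 3-kinase and AKT, and the mitogen-activated protein kinase (MAPK) cascade. In cultured mouse spermatogonia, withdrawal of GDNF lowers Bcl6b, Etv5 and Lhx1, and loss of each of these factors impairs stem cell maintenance. T is a target of ETV5, Pou3f1 responds to GDNF through the kinase AKT, Id4 marks the fraction richest in stem cells, and Eomes marks a subset of GFRA1-positive cells. The title of the series links somatic angiotensin-converting enzyme to self-renewal through MAPK signalling, so the question for these genes is whether their transcripts differ with captopril.

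The T, Etv5 and Eomes promoters are shown because T is the member whose captopril and water arrays did not overlap, Etv5 encodes the factor upstream of it, and Eomes is the other T-box gene of the group. Each sequence is the 250 bases before the start site, read 5' to 3' on the gene's strand from the RefSeq promoter table of GRCm38.p6, which holds 5 of the 7 genes in 6 windows. Capitals mark a T-box half-site (AGGTGT) or an E-box (CANNTG), both searched on both strands.
T, chr17:8434173-8434422, plus strand: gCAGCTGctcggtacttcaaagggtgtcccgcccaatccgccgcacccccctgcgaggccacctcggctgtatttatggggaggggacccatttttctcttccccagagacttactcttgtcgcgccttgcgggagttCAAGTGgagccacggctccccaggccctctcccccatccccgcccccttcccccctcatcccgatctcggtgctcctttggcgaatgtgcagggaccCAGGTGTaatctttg
Etv5, chr16:22439571-22439820, minus strand: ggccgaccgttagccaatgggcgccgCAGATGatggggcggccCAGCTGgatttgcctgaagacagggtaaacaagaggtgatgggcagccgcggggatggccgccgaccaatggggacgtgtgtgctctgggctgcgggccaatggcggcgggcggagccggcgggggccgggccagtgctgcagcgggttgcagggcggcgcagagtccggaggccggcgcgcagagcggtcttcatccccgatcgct
Eomes, chr9:118477939-118478188, plus strand: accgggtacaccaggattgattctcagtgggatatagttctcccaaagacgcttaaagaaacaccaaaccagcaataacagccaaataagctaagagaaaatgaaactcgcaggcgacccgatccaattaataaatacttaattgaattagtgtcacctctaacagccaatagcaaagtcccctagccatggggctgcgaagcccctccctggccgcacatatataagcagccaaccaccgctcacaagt
The T promoter held the half-site of its own protein family, which starts 14 bases before the start site and overlaps the E-box that starts 15 bases before it. Its other E-boxes start 249 and 112 bases before the start site. The upstream Etv5 window held E-boxes starting 224 and 207 bases before its start site, and the Eomes window held neither motif. Among all 32851 windows of this length, 11.8% held AGGTGT and 66.2% held CANNTG. Of the 6 windows of these genes, 1 held AGGTGT and 2 held CANNTG. The windows not shown, the other one of Etv5 and those of Id4 and Lhx1, held neither. The sequence CCGGAA (both strands), a form of the site bound by ETS factors such as ETV5, was in none of the 6 windows of these genes. It was in 12.03% of all windows, and shorter or other forms of the ETS site were not searched. The POU octamer ATGCAAAT and the homeodomain core TAATTA were in none of the 6 either, against 1.601% and 4.84% of all windows.

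Levels below are log2 of the scanner program's processed signal minus the array's 75th percentile, so a difference of 1 is a 2-fold difference. They compare arrays for 1 probe and do not rank genes against each other. The share of spots well above background was 52.2% to 60.5%, and the 32387 probes that passed on 3 or more arrays were fitted together with limma. Water replicate 3 stood apart: its levels correlated with those of the other arrays at 0.878 to 0.893 across probes, while the other 5 correlated with each other at 0.970 to 0.991. Values of the 7 genes, list medians and most values of other genes are therefore given over 6 arrays and without it. The number of arrays limits the precision, and p-values measure only the spread between these cultures. No probe passed limma's adjusted p of 0.05 over 6 arrays (0.0% of 32387), with 2869 at an unadjusted p under 0.05. In the fit without water replicate 3, 91 probes passed (0.281%), with 68 higher (0.21%) and 23 lower (0.071%), and none of them was a probe of these 7 genes.

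T, the brachyury gene, encodes a T-box activator known from mesoderm formation. Its transcript (NM_009309) stood at -0.30, 0.15 and 0.33 on captopril replicates 2, 3 and 4, against -1.26, -0.42 and -1.26 on water replicates 2, 3 and 4. Every captopril array lay above every water array, and the closest pair was captopril replicate 2 and water replicate 3. Of all tested genes, 10.1% had captopril above water on all arrays and 11.4% had it below. The means were 0.06 ± 0.32 with captopril and -0.98 ± 0.48 in water (SD, n = 3 each). The log2 fold change was 1.04 (SE 0.32, 95% interval 0.26 to 1.81), a 2.05-fold difference, with an unadjusted p of 0.0161 and an adjusted p of 0.562 by limma. An exact two-sided permutation test of the 6 values gave p = 0.1, the smallest that 3 arrays against 3 allow. With water replicate 3 left out it was 1.32 (SE 0.21, interval 0.81 to 1.82) with an adjusted p of 0.0622, which did not pass the threshold. Within slide row 2, where the 3 captopril arrays sat with water replicate 4 alone, it was 1.32. Values within slide row 2, here and below, rest on that 1 water array and are given with no test.

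Eomes encodes a second T-box factor and was measured by 2 probes of the same transcript (NM_010136). Probe 1 stood at -0.14, 0.22 and 0.66 on captopril replicates 2, 3 and 4, and at -0.07, 0.41 and -0.60 on water replicates 2, 3 and 4. Probe 2, dimmer, stood at -2.43, -2.28 and -1.91 with captopril and at -2.79, -1.90 and -2.74 in water, in the same replicate order. On both probes captopril replicate 4 was the highest captopril array and water replicate 3 the highest water array, and the groups overlapped. The log2 fold changes were 0.34 (SE 0.35, interval -0.50 to 1.17) for probe 1 and 0.27 (SE 0.32, interval -0.49 to 1.03) for probe 2, with limma adjusted p of 0.686 and 0.725. With each array scaled by its median, probe 2 turned to -0.03. Leaving out water replicate 3 gave 0.58 and 0.56 (adjusted p = 0.292 and 0.192 by limma). On the remaining arrays probe 2 no longer overlapped between groups, while captopril replicate 2 still lay below water replicate 2 on probe 1. Within slide row 2 they were 0.85 and 0.53.

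**Figure D1:**
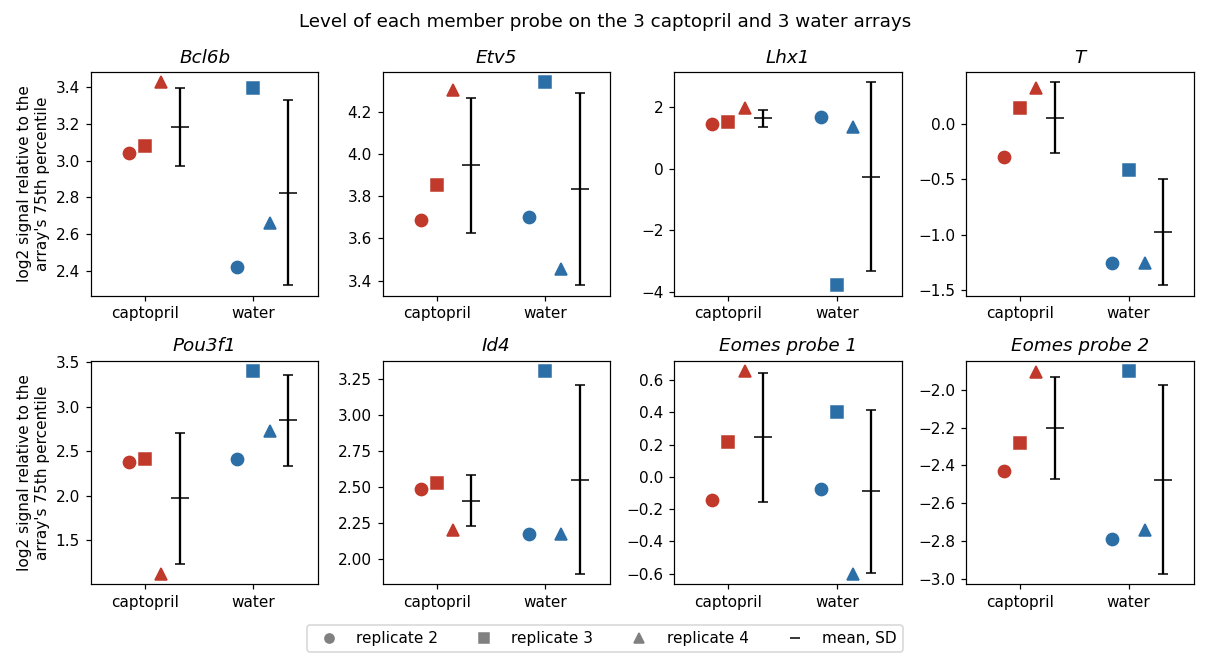
Log2 level of each of the 8 probes on the 3 captopril arrays (left, red) and the 3 water arrays (right, blue), with marker shape for the replicate number and the mean and SD beside each group. T is the gene whose groups are apart, from -0.30 to 0.33 against -1.26 to -0.42, and Lhx1 on water replicate 3 lies at -3.80.

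Bcl6b encodes a BTB zinc finger repressor that is needed for stem cell maintenance in mouse testis. Its probe (NM_007528) stood at 3.04, 3.08 and 3.43 on captopril replicates 2, 3 and 4 and at 2.42, 3.39 and 2.66 on water replicates 2, 3 and 4. Water replicate 3 was as high as the captopril arrays, and the other water arrays were below all of them. The means were 3.18 ± 0.21 with captopril and 2.83 ± 0.51 in water (SD, n = 3 each), a log2 fold change of 0.36 (SE 0.31, interval -0.39 to 1.11, limma adjusted p = 0.635). Without water replicate 3 it was 0.64 (SE 0.19, interval 0.20 to 1.09), a 1.56-fold difference with an unadjusted p of 0.0113 and an adjusted p of 0.147. Within slide row 2 it was 0.52.

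Etv5 encodes an ETS factor whose loss in mice empties the testis of spermatogonia over time. Its probe (NM_023794) stood at 3.68, 3.85 and 4.30 on captopril replicates 2, 3 and 4, and at 3.70, 4.34 and 3.46 on water replicates 2, 3 and 4. Both groups covered nearly the same range. The log2 fold change was 0.11 (SE 0.32, limma adjusted p = 0.898), and its 95% interval of -0.64 to 0.87 corresponds to 0.642-fold to 1.82-fold. It was 0.37 without water replicate 3 (SE 0.22, interval -0.16 to 0.89, adjusted p = 0.384), and within slide row 2 it was 0.49. The sign of the 6-array value depended on single arrays: it was -0.06 without captopril replicate 4 and -0.07 without water replicate 4.

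Lhx1 encodes a LIM-homeodomain factor. Its probe (NM_008498) stood at 1.46, 1.51 and 1.97 on captopril replicates 2, 3 and 4 and at 1.67, -3.80 and 1.37 on water replicates 2, 3 and 4. The 5 arrays other than water replicate 3 lay within 1.37 to 1.97 and overlapped between groups, and water replicate 3 differed from the mean of the other water arrays by -5.32 log2 units. That probe was still well above background there. The 6-array log2 fold change of 1.90 (SE 1.40, interval -1.43 to 5.24, limma adjusted p = 0.600) therefore rests on that 1 array, and without it the value was 0.13 (SE 0.21, interval -0.37 to 0.63, adjusted p = 0.746). Within slide row 2 it was 0.28. Among all tested probes 378 (1.17%) lay as far below the other water arrays on water replicate 3. The GDNF co-receptor gene Gfra1 had -0.96, -2.79 and -1.71 on captopril replicates 2, 3 and 4, and it lay at -4.88 on water replicate 3, where water replicates 2 and 4 had -1.17 and -1.20. Gfra1 was well above background on 5 of the 6 arrays.

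Pou3f1 encodes a POU-domain factor, also called Oct-6. It was the member with the largest negative value, and both groups were widely spread. The probe (NM_011141) stood at 2.38, 2.42 and 1.12 on captopril replicates 2, 3 and 4 and at 2.41, 3.40 and 2.72 on water replicates 2, 3 and 4. Captopril replicate 4 differed from the mean of the other captopril arrays by -1.27 log2 units, a distance downward that 556 of 32387 probes (1.72%) reached, and captopril replicate 3 lay level with water replicate 2. The log2 fold change was -0.87 (SE 0.44, interval -1.94 to 0.19, limma adjusted p = 0.572). Without water replicate 3 it was -0.60 (SE 0.40, adjusted p = 0.424), within slide row 2 it was -0.75, and without captopril replicate 4 it was -0.45.

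Id4 encodes a helix-loop-helix protein that lacks a DNA-binding region and blocks E-box-binding partners. Its probe (NM_031166) stood at 2.49, 2.53 and 2.20 on captopril replicates 2, 3 and 4 and at 2.17, 3.30 and 2.17 on water replicates 2, 3 and 4. Water replicate 3 was the highest array of all, by more than the range of the other 5. The log2 fold change was -0.14 (SE 0.36, interval -1.003 to 0.71, limma adjusted p = 0.883) over 6 arrays. The direction turned without water replicate 3, to 0.23 (SE 0.17, interval -0.17 to 0.63, adjusted p = 0.458), and within slide row 2 it was 0.23 too.

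**Figure D2:**
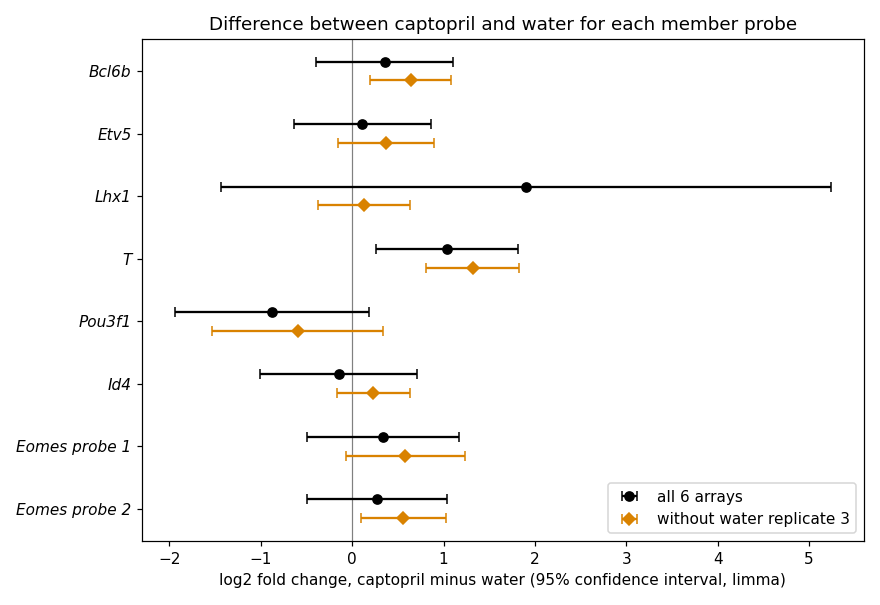
Difference of captopril minus water on the log2 scale for the 8 probes, each with its 95% limma confidence interval, over all 6 arrays (black circles) and without water replicate 3 (orange diamonds). The interval of T lies above 0 in both fits (0.26 to 1.81 and 0.81 to 1.82), and that of Lhx1 spans -1.43 to 5.24 over 6 arrays and -0.37 to 0.63 without water replicate 3.

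Set side by side, 5 of the 7 genes had a positive log2 fold change over 6 arrays and 2 (Pou3f1 and Id4) a negative one, with a median of 0.34, against -0.03 for all 14867 genes by their brightest probe. Without water replicate 3, 6 were positive and Pou3f1 alone negative, with a median of 0.37, against 0.07 for all genes. T alone had groups that did not overlap over 6 arrays, 1 of 7 genes, beside the 10.1% and 11.4% of all genes given above. Without water replicate 3 this held for T, Bcl6b and Id4, 3 of 7, where 27.2% of all genes lay above and 15.7% below. At an unadjusted p under 0.05 there was 1 member over 6 arrays, T, beside 3.07% of all genes higher and 4.48% lower. There were 2 without that array, T and Bcl6b, beside 11.2% higher and 6.61% lower. These counts are a description, since the genes were chosen with earlier results of these data known.

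The arrays of a group were not alike in which members they carried high. Water replicate 3 lay above the mean of water replicates 2 and 4 by 0.74 to 1.13 on 7 of the 8 probes, where the median over all tested probes was 0.30, and below it on Lhx1. Captopril replicate 4 lay above the mean of captopril replicates 2 and 3 by 0.37 to 0.62 on the probes of Bcl6b, Etv5, Lhx1, T and Eomes, where the median over all probes was 0.15, and below it on Pou3f1 and Id4. The part of these array-wide departures in the differences between groups was not tested.

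**Figure D3:**
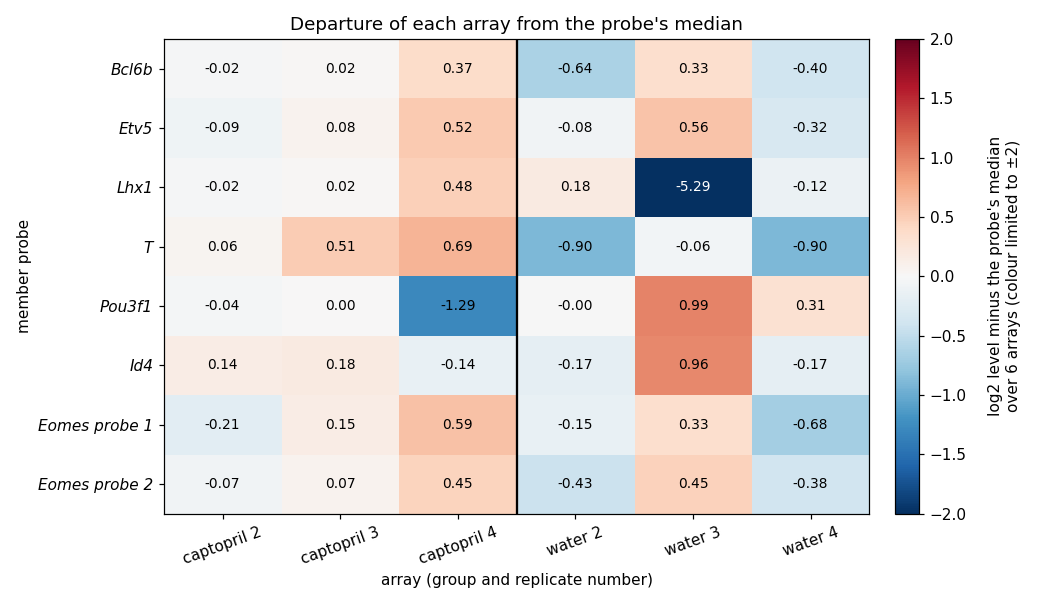
Log2 level of each probe (rows) on each array (columns) minus that probe's median over the 6 arrays, with colour limited to 2 on either side. Most rows are red on captopril replicate 4 and water replicate 3, with Pou3f1 at -1.29 and Id4 at -0.14 as the exceptions on captopril replicate 4, and Lhx1 at -5.29 and T at -0.06 on water replicate 3.

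Upstream of these factors, neither the ligand gene nor a receptor gene passed the test. Of 26 GDNF ligand, receptor and signalling kinase genes 25 were tested, and none passed limma over all probes in either fit. Their median log2 fold change was -0.10 over 6 arrays and -0.10 without water replicate 3. Captopril lay above water on all arrays for 3 of the 25 and below it for 2, beside 10.1% and 11.4% of all genes. Gdnf, the growth factor itself, stood at -3.09, -3.18 and -3.29 on captopril replicates 2, 3 and 4 and at -4.31, -3.42 and -4.19 on water replicates 2, 3 and 4. All captopril arrays lay above all water arrays, and the fitted log2 difference was 0.79 (SE 0.30), with an adjusted p of 0.562 by limma. It was 1.07 (SE 0.16, adjusted p = 0.0549) without water replicate 3, and over 6 arrays it was 0.49 with array median scaling and 0.51 with quantile normalization. Pik3cb, a catalytic subunit of phosphoinositide 3-kinase, stood at -0.59 (adjusted p = 0.562) and at -0.62 without that array (adjusted p = 0.111). The kinase genes Src and Fyn had 0.68 and -0.53 (limma adjusted p of 0.577 and 0.578), and 0.31 and -0.37 without water replicate 3. The receptor gene Ret had -0.39 (SE 0.31) and Gfra1 0.60 (SE 1.06), and without water replicate 3 they had -0.10 and -0.64.

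Among other genes reported to respond to GDNF or to ETV5 in spermatogonia, 15 of 17 were tested and none passed. Their median was -0.09 over 6 arrays and -0.03 without water replicate 3. The smallest p belonged to Mycn, a MYC-family gene that GDNF raises, with 1.15, 1.17 and 0.88 on captopril replicates 2, 3 and 4 and 1.70, 2.68 and 1.59 on water replicates 2, 3 and 4. The groups did not overlap, and the log2 fold change was -0.92 (SE 0.34, limma adjusted p = 0.562), or -0.58 (adjusted p = 0.144) without water replicate 3. The chemokine gene Ccl9, the MAPK inhibitor gene Spred1 and the stem cell RNA-binding factor Nanos2 had -0.68, -0.86 and -0.51, with captopril below water on all arrays, and -0.49, -0.48 and -0.33 without water replicate 3. The early growth response gene Egr2, the ETS gene Etv4 and the MAPK phosphatase gene Dusp6 had 0.08, 0.07 and 0.13, with limma adjusted p of 0.859 to 0.918, and 0.18, 0.18 and 0.36 without water replicate 3. In this list 4 of 15 genes had captopril below water on all arrays and 0 above it, beside 11.4% and 10.1% of all genes.

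Relatives of the members from the same protein families went both ways. Of 28 genes 22 were tested, 11 positive and 11 negative, with a median of 0.00 over 6 arrays and 0.01 without water replicate 3, and none passed. Lhx5, Tbx18, Id2 and Lhx8 had the smallest p, at -0.51, -0.64, -0.90 and -0.64 (limma adjusted p of 0.562 to 0.572), and had -0.53, -0.43, -0.87 and -0.32 without water replicate 3. Bcl6, the nearest relative of Bcl6b, had 0.42 (SE 0.25) and, without water replicate 3, 0.61 (SE 0.15, adjusted p = 0.116). Etv1, a relative of Etv5, had 0.24 and 0.65 in the same fits. Id3 had 1.24 over 6 arrays and 0.10 without water replicate 3. Its level was 0.55 on that array and 4.08 and 3.84 on water replicates 2 and 4.

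Genes listed as stem cell transcription factors not attributed to GDNF had a median of -0.02, with 18 of 19 tested and none passed. Without water replicate 3 the median was 0.01. Of the 19 genes 8 are also in other lists. Among them is the RNA-binding factor Nanos2, given above with the genes reported to respond to GDNF or to ETV5. The list is therefore not strictly apart from GDNF, nor made up of transcription factors only. Taf4b, a subunit of the basal transcription machinery used in germ cells, had -0.93 (SE 0.26, limma adjusted p = 0.553), and -0.78 without water replicate 3, but was well above background on 4 of 6 arrays. Sall4, a zinc finger factor of undifferentiated spermatogonia, had 0.89 (SE 0.38, adjusted p = 0.563), and 0.51 without water replicate 3. Sall1 had -0.88, and -0.45 without that array. Zbtb16, which encodes PLZF, had -0.01 over 6 arrays and 0.16 without water replicate 3. The 6 genes of E-box-binding proteins that ID4 can engage or that act beside them were all tested, and their median was -0.002 over 6 arrays (3 positive, 3 negative) and 0.13 without water replicate 3 (5 positive, 1 negative). Tcf12 had 0.44 and Tcf3 0.31, with captopril above water on all arrays, 2 of 6 genes beside 10.1% of all genes. For Tcf3 the closest pair was 3.40 on captopril replicate 2 and 3.37 on water replicate 2. Sohlh2 had -0.12 and Tcf15 -0.03, and none passed the test. Array median scaling left Tcf3 at 0.01. Without water replicate 3, Tcf12 had 0.35, Tcf3 0.10 and Tcf15 0.02. Sohlh2 had -0.30, with captopril then below water on all arrays, beside 15.7% of all genes.

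Since T and Eomes are also known from the primitive streak, 15 other genes of the streak and of mesendoderm were examined. Only 9 were bright enough to be tested, their median was -0.09 (-0.14 without water replicate 3), and none passed. Wnt3, a ligand that acts upstream of T in the mouse embryo, stood at -1.64, -1.68 and -1.58 on captopril replicates 2, 3 and 4 and at -0.80, -0.18 and -0.75 on water replicates 2, 3 and 4. The groups did not overlap, and the log2 fold change was -1.06 (SE 0.25, limma adjusted p = 0.553), or -0.86 (SE 0.15, adjusted p = 0.0678) without water replicate 3, opposite in sign to T. Mesp1, Gsc and Nodal had -0.51, -0.48 and -0.42, and -0.30, -0.27 and -0.65 without that array. Of the 9 genes 4 were positive, among them Tbx6, another T-box gene, at 0.28. Mixl1, Evx1, Msgn1, Cer1, Sox17 and Gata4 were not well above background on at least 3 arrays.

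**Figure D4:**
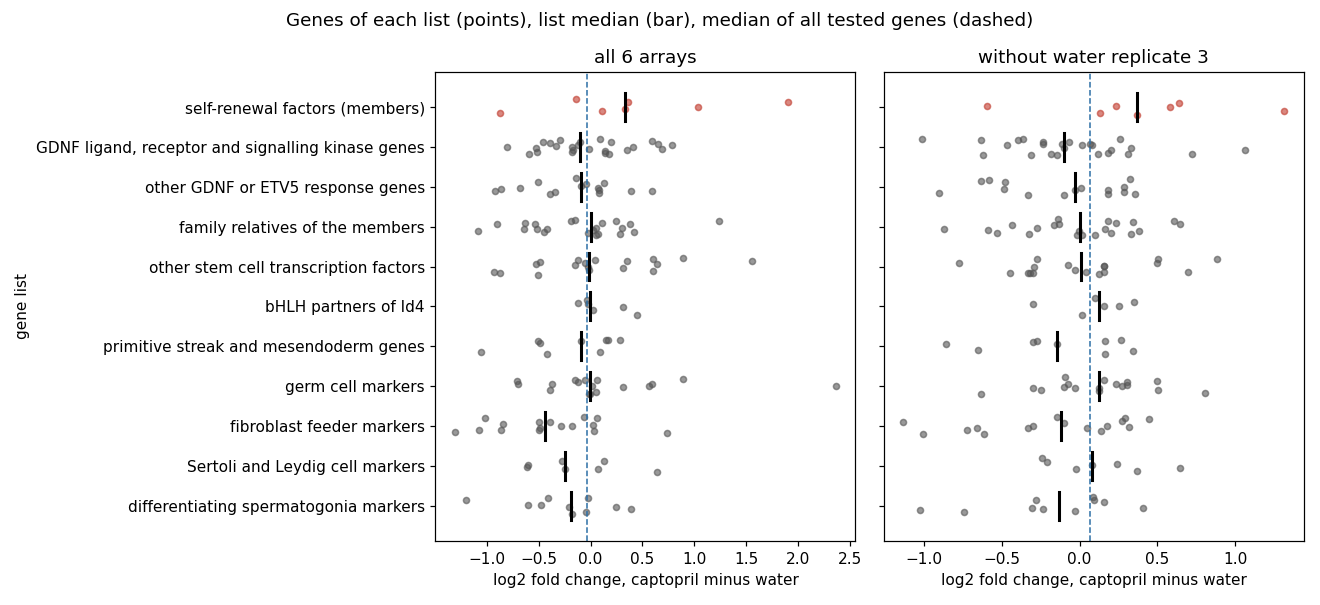
Differences of captopril minus water on the log2 scale for the tested genes of each list (points; the 7 self-renewal factors in red), with the list median as a bar and the median of all tested genes as a dashed line, over 6 arrays (left) and without water replicate 3 (right). The 7 factors have medians of 0.34 and 0.37. The medians of the other lists lie between -0.44 and 0.00 on the left and between -0.14 and 0.13 on the right.

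Markers of the labelled cell type were present. All 17 germ cell markers were tested and 16 were well above background on all 6 arrays, with Gfra1 as the exception. Their median level, relative to each gene's own median, was -0.05 to 0.23 on captopril arrays, and -0.17, -0.02 and 0.54 on water replicates 4, 2 and 3. The median log2 fold change was -0.01 (0.13 without water replicate 3), with the smallest p for Sall4 and Dppa4 (2.37, resting on -2.41 on water replicate 3, and 0.81 without it) and with -0.70 and -0.71 for Cdh1 and Ddx4, which had -0.30 and -0.25 without it. All 16 fibroblast feeder markers were well above background on all arrays, at -0.22 to 0.02 on captopril arrays and at 0.02, 0.64 and -0.01 on water replicates 2, 3 and 4. Their median log2 fold change was -0.44, with Col3a1, Pdgfrb, Postn and Lum at -0.87, -1.08, -1.31 and -1.02. Captopril lay below water on all arrays for 6 of 16 and above it for 1, Loxl1 (0.74), beside 11.4% and 10.1% of all genes. Col1a2, Pdgfra and Thy1 were positive too, at 0.03, 0.02 and 0.06. The median was -0.12 without water replicate 3, with 7 positive and 9 negative, and Col3a1, Pdgfrb, Postn and Lum had -0.66, -0.72, -1.14 and -0.61. Of 15 Sertoli and Leydig cell markers 7 were tested, and Nr5a1, Star, Wt1 and Clu had 0.64, -0.61, -0.60 and -0.28. Their median was -0.25 over 6 arrays and turned to 0.08 without water replicate 3, where Nr5a1, Star, Wt1 and Clu had 0.37, -0.24, -0.21 and -0.02. Amh, Fshr, Lhcgr, Insl3, Cyp11a1, Cyp17a1, Hsd3b1 and Gata4 were not among the genes tested. All 10 markers of differentiating spermatogonia were tested, with a median of -0.19, and Meioc, Kit, Sycp3 and Stra8 had -1.20, -0.60, -0.48 and -0.41, while Ccnd2 and Rec8 had 0.39 and 0.24. The median was -0.13 without water replicate 3, with 4 positive and 6 negative. Meioc, Kit, Sycp3, Stra8, Ccnd2 and Rec8 then had -1.03, -0.23, -0.31, -0.28, -0.03 and 0.41. None of these markers passed limma over all probes in either fit, and the part of feeder or differentiating cells in the values of the 7 factors was not tested.

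The genes whose profile over the 6 arrays was nearest to each member were found by the root mean square difference of centred log2 levels among 14866 other genes. For T these were Pdk4, Art3 and Poln, at 0.12, 0.13 and 0.15. Pdk4 stood at 0.84, 1.14 and 1.26 on captopril replicates 2, 3 and 4 and at -0.20, 0.89 and -0.26 on water replicates 2, 3 and 4. For Bcl6b they were Plekhn1, Tgm5 and Utp6 (0.04 to 0.06), for Etv5 Cox7a2l, Ocm and Maats1 (0.04 each) and for Eomes Dnah8, Banf2 and Espnl (0.06 to 0.08). Lhx1 was followed by Ubtd1, Sptlc2 and Rogdi (0.09 each), which stood at -4.10, -3.74 and -4.00 on water replicate 3 and above 1 on all other arrays. Without water replicate 3, these genes ranked only 1058, 977 and 640 in nearness to Lhx1. Pou3f1 was followed by Camta1, Rcbtb1 and Wdr43 (0.06 to 0.10), all lowest on captopril replicate 4, and Id4 by Slc1a3, Usp45 and Mon1b (0.04 to 0.05), all highest on water replicate 3. Among the members themselves the nearest pair was Etv5 and Eomes (0.15), where Etv5 ranked 138 in nearness to Eomes and Eomes 1460 in nearness to Etv5. Over the 5 arrays without water replicate 3 the nearest pair was Etv5 and Lhx1 (0.13), ahead of Etv5 and Eomes (0.16). Bcl6b ranked 400 in nearness to T and Etv5 1615.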

How the data were processed

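RNA of 3 captopril and 3 water cultures was measured on 6 single-colour arrays on 1 slide. The deposited intensity values are processed signals of Agilent's Feature Extraction program. The file headers give 11.5.1.1 as its version, and the submitters' processing notes give 10.7. The authors' deposited table of log2 values equals log2 of these signals minus a constant per array, and was used only as an alternative. Log2 signals were set relative to each array's 75th percentile over probe spots without an outlier flag, and spots of a probe were averaged. Of 55681 probes 26762 were named through their accession in the RefSeq table of GRCm38.p6, 28919 had no name, and 63 lacked an array through outlier flags. The array design refers to mm9, so no probe coordinates are given.

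Probes well above background on at least 3 arrays were fitted by limma (3.58.1, under R 4.3.3) with its moderated two-sided test (Benjamini-Hochberg over all probes, threshold 0.05), without a block. The code was tested on simulated data. A gene's value is that of its brightest tested probe. The members, the gene lists and the tests were chosen with earlier results of these data known. The genes named are all 7 members, up to 4 genes with the smallest p in each list, and the 3 nearest profiles per member. Egr2, Etv4, Dusp6, Ret, Gfra1, Bcl6, Etv1, Id3, Zbtb16, Uchl1, Tbx6, Loxl1, Col1a2, Pdgfra, Thy1, Ccnd2, Rec8, Nefm and the genes far lower on water replicate 3 fall outside this rule and were named with their values known, and genes not tested are named as such. Python 3.11.15 and matplotlib 3.10.9 were used. Alternatives were normexp with an offset of 50 on median signals, quantile normalization, array median scaling, other filters, 1 probe per gene, the authors' table, a variance trend, a block for the replicate number or for the slide row, the arrays of slide row 2 only, and each array left out. Slide row 1 held water replicates 2 and 3 only.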

Additional observations from a re-analysis of the deposited data

How the results depend on the processing

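None of the 7 genes passed an adjusted p of 0.05 by limma under any alternative, with adjusted p from 0.0622 for T without water replicate 3 upward. T stayed between 0.74 and 1.32, Bcl6b between 0.06 and 0.64, Eomes probe 1 between 0.03 and 0.85, and Pou3f1 between -1.18 and -0.45. Etv5 turned to -0.19 with array median scaling and ranged from -0.074 to 0.37 with single arrays left out. Id4 was -0.45 with array median scaling and ranged from -0.33 to 0.23 with single arrays left out. It turned to 0.23 with the slide row as a block and in slide row 2 alone. For any gene these fits must give the same value, since slide row 1 held only water arrays. Both rest on 1 water array. Fits without water replicate 3 under other scalings were added after seeing the data. There Id4 was 0.18 with quantile normalization and 0.10 with array median scaling, where Lhx1 was -0.0026. Lhx1 ranged from 0.13 to 2.86 with single arrays left out. Array median scaling moved the median of all probes by -0.30. Relative to that median Etv5 stood at 0.05 and T at 0.97 under either scaling. This had to be so, since the scalings differ only by a constant per array. The probes called numbered 0 over 6 arrays, 2 with the slide row as a block, 3 in slide row 2 alone and 0 to 91 with single arrays left out. The 91 without water replicate 3 fell to 0 with quantile normalization or array median scaling (6325 and 6286 at an unadjusted p under 0.05). With the replicate block, limma called 0 probes (2118 at an unadjusted p under 0.05), and gave T an adjusted p of 0.627; its 1.04 cannot move under a block when each number occurs once in each group. Whether the numbers pair the samples is not stated in the labels. Deviations of same-numbered arrays correlated at 0.01, 0.03 and -0.15, and 1 of 6 samples correlated best with its own number. With 3 arrays per group, and water replicate 3 apart from the rest, these correlations cannot decide it. Among other genes, Tcf3 turned to -0.035 with array median scaling without water replicate 3. Tcf15 turned to 0.025 with quantile normalization and 0.17 with the slide row as a block and in slide row 2 alone, and ranged from -0.21 to 0.10 with single arrays left out. Clu turned to 0.081 with the slide row as a block and in slide row 2 alone. The causes were not tested.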

Other observations

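Water replicate 3 set the value of Lhx1, and genes of other lists departed in the same way on it. Of 14867 tested genes 1168 (7.86%) lay at least 2 log2 units below the mean of water replicates 2 and 4 on that array, and 46 lay as far above. Among the GDNF ligand, receptor and kinase genes those below were Gfra1 and Pik3ca (2 of 25), and among the other response genes Gfra1 and Nefm (2 of 15). Among family relatives it was Id3 (1 of 22), and among the other stem cell factors Dmrt1 and Foxo3 (2 of 18). Among germ cell markers they were Dppa4 and Gfra1 (2 of 17), and among differentiation markers Dmrtb1 (1 of 10). None of the 16 fibroblast markers, the 9 primitive streak genes or the 6 E-box-binding partners lay that far below. Lists this short cannot be told apart from the 7.86% of all genes by such counts. Uchl1, a germ cell marker, stood at 2.06 on that array, against 3.96 on both other water arrays. Uchl1 was not typical of the 17 germ cell markers. After subtraction of every marker's 6-array median, the middle value of these markers was 0.54 on water replicate 3. It was -0.02 and -0.17 on water replicates 2 and 4. The same value for all tested genes was 0.36 on water replicate 3.

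In the fit without water replicate 3, no gene of the lists and members passed limma's adjusted p of 0.05. The genes with the 5 smallest adjusted p are named. These were Gdnf at 1.07 (adjusted p = 0.0549), Nefm at -0.90 (adjusted p = 0.0619), T at 1.32 (adjusted p = 0.0622), Wnt3 at -0.86 (adjusted p = 0.0678) and Meioc at -1.03 (adjusted p = 0.0875). Nefm, a neurofilament gene, had -0.05 over 6 arrays (adjusted p = 0.983). Of all 14867 tested genes 40 passed 0.05 in this fit. At an unadjusted p under 0.05, 11.2% of all genes were higher and 6.61% lower. How many other genes reached adjusted p as small as those named was not counted, so whether these genes stand out cannot be judged. The 91 probes that passed 0.05 in this fit fell to 0 with quantile normalization or array median scaling.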
